A study of Mus musculus with 2 samples.

Results

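Espn, Fscn2, Ush1c, Myo7a and Otof are deafness genes best known from the sensory hair cells of the inner ear, and here their RNA was followed in neurons of the spiral ganglion. The 5 genes were taken by name from the 14425 genes of the deposited single-cell table. The members were chosen by their levels and library ratios in this same table, so these values are given as a description and support nothing further. The study compared 2 mouse libraries, labelled iCON and iCKO, with 462 and 407 cells. iCON mice were Runx1-CreER/+; Ai14/+, and iCKO mice were Runx1-CreER/Runx1F; Ai14/+. Mice of both groups thus carried the tamoxifen-inducible Cre driver Runx1-CreER and the Ai14 tdTomato reporter, both groups received tamoxifen on postnatal day 1, and the floxed Runx1 allele was present only in iCKO. Cochleae were collected between postnatal days 27 and 29 from females and males, and the cells were dissociated, sorted for tdTomato and read with the 10x Genomics 3′ assay v3. Each group is 1 library and the labels do not give the number of animals behind it, so the libraries differ in genotype and in everything else that differed between the preparations, and no test between them was possible. Only cells in which the Runx1 driver had switched on the reporter were sorted.

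Hair cells carry bundles of actin-filled projections, the stereocilia, that turn sound into electrical signals. Espin (Espn) and fascin 2 (Fscn2) crosslink the actin filaments of these bundles, harmonin (Ush1c) is a scaffold protein at the tip links between stereocilia, and myosin VIIa (Myo7a) is the motor that works with harmonin. Loss of Ush1c or Myo7a causes Usher syndrome in people, which joins deafness with blindness. Otoferlin (Otof) is the calcium sensor for transmitter release at the ribbon synapse between the inner hair cell and the neuron. Spiral ganglion neurons receive that transmitter and carry the signal to the brain. Type I neurons, which contact inner hair cells, are usually divided into Ia neurons rich in calretinin (Calb2), Ib neurons marked by calbindin (Calb1) and Ic neurons marked by Lypd1, and the rarer type II neurons contact outer hair cells. Runx1 is a transcription factor of type I neurons.

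Per GENCODE M21 on GRCm38, Espn (ENSMUSG00000028943.18) lies on chr4:152120331-152152371, minus strand, and Fscn2 (ENSMUSG00000025380.2) on chr11:120361534-120368168, plus strand. Ush1c (ENSMUSG00000030838.18) lies on chr7:46195350-46238503 and Myo7a (ENSMUSG00000030761.15) on chr7:98051060-98119524, both on the minus strand of the same chromosome. Otof (ENSMUSG00000062372.13) lies on chr5:30367062-30461932, minus strand. All 5 are protein-coding, and none overlaps another gene listed in the table. Gm9860 overlaps Ush1c on the opposite strand and is not listed in the table.

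Because the study targeted a RUNX factor, the promoters of the members were read for the RUNX core motif. RefSeq windows on GRCm38.p6, from 250 bases before to 50 after a transcription start, matched 4 of the 5 members and gave 7 windows of 300 bases. Otof had no entry. Motifs were searched on both strands, the RUNX core (TGTGGT, or ACCACA on the other strand) and the E-box (CANNTG, its own reverse complement), and matches may overlap. Below are the most upstream window of Espn and the window of Fscn2, the members highest in Lypd1-high neurons of iCON, then that of Ush1c, the member with the largest library difference, and the upstream window of Myo7a. Capitals mark the matches, and each window reads 5′ to 3′ on the strand of its gene.
Espn, chr4:152152340-152152639, minus strand: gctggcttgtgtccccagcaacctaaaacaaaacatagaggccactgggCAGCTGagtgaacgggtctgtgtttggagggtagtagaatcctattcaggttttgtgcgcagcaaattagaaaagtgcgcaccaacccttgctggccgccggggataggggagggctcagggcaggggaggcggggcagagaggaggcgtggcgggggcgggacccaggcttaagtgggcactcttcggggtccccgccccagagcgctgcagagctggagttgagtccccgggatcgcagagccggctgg
Fscn2, chr11:120361284-120361583, plus strand: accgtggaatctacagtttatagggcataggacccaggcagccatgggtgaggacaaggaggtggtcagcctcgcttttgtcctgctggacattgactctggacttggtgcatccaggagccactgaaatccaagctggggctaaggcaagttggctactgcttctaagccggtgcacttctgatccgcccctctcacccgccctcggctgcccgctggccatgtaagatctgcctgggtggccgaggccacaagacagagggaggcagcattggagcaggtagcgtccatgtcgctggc
Ush1c, chr7:46238441-46238740, minus strand: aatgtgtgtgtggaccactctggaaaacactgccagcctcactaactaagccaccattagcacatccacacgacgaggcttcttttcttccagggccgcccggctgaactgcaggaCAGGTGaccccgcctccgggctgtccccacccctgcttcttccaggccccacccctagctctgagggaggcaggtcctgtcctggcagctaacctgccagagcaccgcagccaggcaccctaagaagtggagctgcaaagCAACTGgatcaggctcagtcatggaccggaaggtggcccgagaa
Myo7a, chr7:98119444-98119743, minus strand: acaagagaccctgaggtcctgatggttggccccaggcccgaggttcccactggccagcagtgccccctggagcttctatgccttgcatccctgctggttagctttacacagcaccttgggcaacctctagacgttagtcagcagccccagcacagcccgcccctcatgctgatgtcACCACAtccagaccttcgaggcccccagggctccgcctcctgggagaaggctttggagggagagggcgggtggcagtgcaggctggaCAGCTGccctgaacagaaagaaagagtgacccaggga
The RUNX core was present in 2 of the 7 windows, the upstream one of Myo7a shown above (ACCACA) and its other window, against 16.8% of all 32851 windows. The Espn, Fscn2 and Ush1c windows held no match to it, which says only that these letters are not in these windows. E-boxes were present in 5 of the 7 windows, against 72.3% of all windows. The Espn window above held 1, that of Ush1c held 2 and that of Fscn2 held none. A match is a description of the letters and not evidence of binding.

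The libraries were deep for single cells, with a median of 49725.5 UMIs (unique molecular identifiers, counts of distinct RNA molecules) per cell in iCON and 33602 in iCKO, and no cell barcode was shared between them. All 6 neuron marker genes were listed in the table, and the lowest summed level of these markers in an iCON cell was 33.5 UMIs per 10000. Runx1 RNA was at 0.867 per 10000 in iCON and at 1.12 in the library labelled iCKO, which is not lower, and reads from the 3′ end may not show the loss of an exon inside the transcript. Both libraries are therefore named by their labels. Cells with Xist and no Y-linked RNA made up 54.5% of iCON and 78.4% of iCKO, and cells with under 5 UMIs per 10000 of the myelin genes Mbp, Pmp22 and Mal made up 24.7% and 39.1%. Both features moved with the library, so values within them are given below for Espn and Fscn2. Hair cell markers were checked because all 5 members are hair cell genes. Of 19 markers, 10 were listed, and Pou4f3, Gfi1, Atoh1, Slc26a5, Ocm and Strc had no row. Tmc1 had 13 UMIs in all of iCON and 3 in iCKO, Chrna9 16 and 6, and Slc17a8, the vesicular glutamate transporter of inner hair cells, 10 and 5. The summed level of the 10 listed markers ran from 8.27 to 74.0 per 10000 in iCON cells and from 12.7 to 198 in iCKO cells, with medians of 42.7 and 45.9. Among these markers Pvalb, which neurons of this ganglion also express, had means of 38.1 and 42.2. The highest sum, 198, was in a both-low cell of iCKO.

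A level below is the mean over cells of the UMIs of a gene per 10000 UMIs of the cell. A library ratio is the log2 of iCKO over iCON after 0.05 is added to each mean as a pseudocount, and 0.5 either way was the fold used. The intervals beside ratios are exact at 95%, belong to the ratio of summed UMIs with no pseudocount, and cover counting error only, not differences between animals or preparations. Neurons were divided by their linear levels. Lypd1-high cells had Lypd1 of at least 10 (180 iCON and 126 iCKO cells). Of the rest, Calb2-high cells had Calb2 of at least 50 (154 and 256), intermediate-Calb2 cells had 5 to under 50 (97 and 18), and both-low cells had under 5 (31 and 7). The classes are ranges of level and not cell types, and in iCKO the Lypd1-high cells had a median Calb2 of 43.2 against 1.81 in iCON. Single cells near a limit can fall on either side.

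Over all cells of a library, Ush1c, Espn and Fscn2 were detected in many neurons, Myo7a in few and Otof in 3 cells. Ush1c had 356 UMIs in iCON and 611 in iCKO, with means of 0.164 and 0.448. Espn had 437 and 461 UMIs, with means of 0.200 and 0.341. Fscn2 had 249 and 87, with means of 0.111 and 0.0667. Myo7a had 51 and 45, and Otof 2 and 5. The order of the levels was Espn, Ush1c, Fscn2 in iCON and Ush1c, Espn, Fscn2 in iCKO. Of the 5 members, 3 reached a mean of 0.05 in either library and entered the comparison across 9968 genes. Among all these genes 1.38% were higher in iCKO by the fold and 3.26% lower, with a median log2 ratio of -0.030. The members higher by the fold were Ush1c (log2 ratio 1.22, interval 1.27 to 1.65, rank 7 from the highest) and Espn (0.64, 0.56 to 0.95, rank 65). Fscn2 was at -0.47 (-1.21 to -0.48), just short of the fold with this pseudocount and past it, at -0.66, with a pseudocount of 0.01. Since these values led to the choice of the genes, nothing is read from the share of members past the fold. In the comparisons that follow, too, a gene could enter through the group in which it was high, so a rank there is a description and supports nothing.

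**Figure D1:**
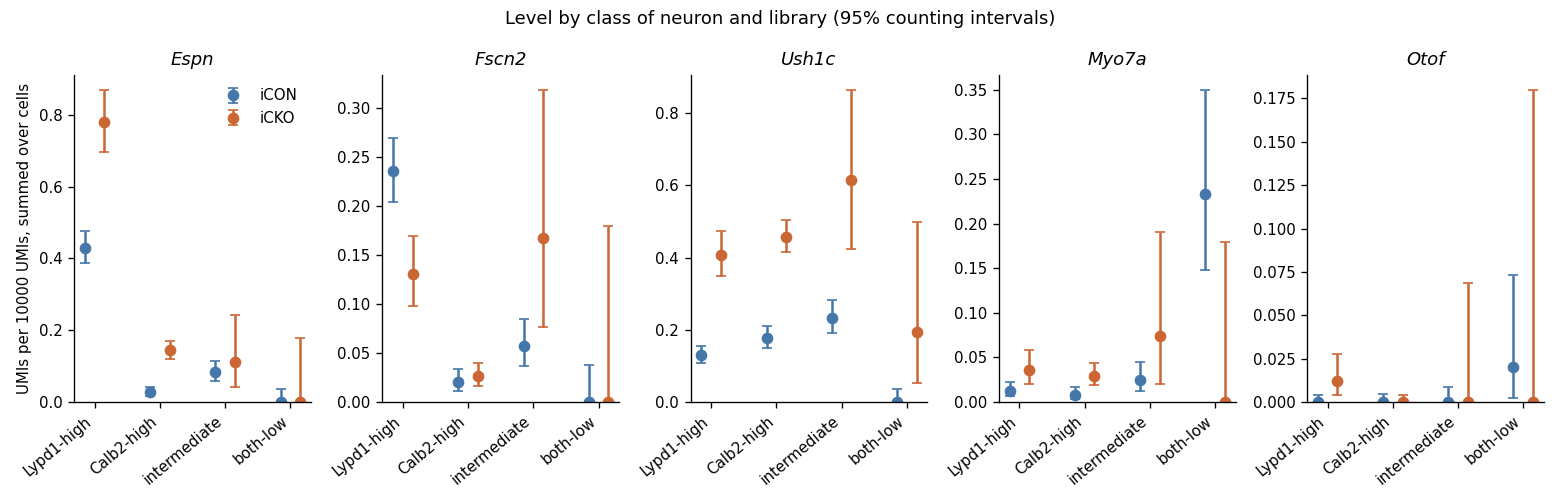
Level of each member in UMIs per 10000 UMIs, summed over the cells of a class (x axis) in iCON (blue) and iCKO (orange), with exact 95% Poisson intervals for counting error. Espn is highest in Lypd1-high cells in both libraries and Fscn2 in iCON, while in iCKO Fscn2 is higher in the intermediate class, on 9 UMIs. Ush1c is higher in iCKO in the Lypd1-high, Calb2-high and intermediate classes, and Myo7a stands at 23 UMIs in the iCON both-low class. Each panel has its own y scale.

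Espn was concentrated in Lypd1-high neurons. These cells held 87.0% of the Espn UMIs of iCON and were 39.0% of its cells, and in iCKO they held 71.4% and were 31.0%. In iCON the mean level was 0.441 in Lypd1-high, 0.0917 in intermediate-Calb2 and 0.0276 in Calb2-high cells, with 0 UMIs in the 31 both-low cells, which allows up to 0.0304. In iCKO the means were 0.783, 0.112 and 0.148, with 0 UMIs in the 7 both-low cells, which allows up to 0.146. The Lypd1-high class was above the Calb2-high class in both libraries. The log2 ratio between these classes was 2.66 in iCON and 2.07 in iCKO, ranking 6 of 9987 and 9 of 9847 genes. The background for a class ratio of at least 1 was 1.17% of genes higher and 0.811% lower in iCON, and 0.701% higher and 0.518% lower in iCKO.

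Within the Lypd1-high class, Espn was also uneven from cell to cell. Its SD over iCON Lypd1-high cells was 0.585 against a mean of 0.441, and the largest count in a cell was 18 UMIs in each library. The share of these cells with an Espn UMI was 62.2% (interval 54.7 to 69.3) in iCON and 73.0% (64.4 to 80.5) in iCKO, although iCKO was shallower. After each cell was thinned to 20000 UMIs the shares were 41.0% (33.7 to 48.6) and 61.6% (52.5 to 70.2). The both-low cells of iCON held Espn in 0 of 31 cells at a median depth of 32046 UMIs, against a median of 50681 in Lypd1-high cells. The part of free RNA in the droplets was not tested.

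By bands of Lypd1, the iCON mean of Espn was 0.0422 below 1, 0.0902 from 1 to under 10, 0.549 from 10 to under 30 and 0.426 at 30 or more. The iCKO means in the same bands were 0.113, 0.530, 0.898 and 0.695. The mean was highest in the band from 10 to under 30 in both libraries, but in iCON a single one of its 23 cells held 18 of its 54 UMIs. The intervals of the summed levels of the upper bands overlap within each library, which does not decide whether these bands differ. The share of cells with an Espn UMI had the opposite order. It was 52.2% from 10 to under 30 and 63.7% at 30 or more in iCON, and 65.5% and 78.9% in iCKO. So did the median level, at 0.187 and 0.238 in iCON and at 0.375 and 0.542 in iCKO. Bands of Calb2 hold cells of all classes, Lypd1-high cells included, whose median Calb2 differed between the libraries as given above, so a band does not hold the same mix of classes in each. In these bands the libraries had different shapes. In iCON the mean went from 0.358 below 5 to 0.218, 0.0371 and 0.0143 in the bands that start at 5, 50 and 150. In iCKO it was 0.392 below 5, then 0.677, 0.512 and 0.0727. The iCKO cells with Calb2 of 50 or more that were not Lypd1-high, which are the Calb2-high class, had the mean of 0.148 given above. Splitting by Calb1 among cells with Lypd1 below 10 gave 0.0404 in Calb1-positive cells (0.5 or more per 10000) and 0.0493 in the others in iCON, and 0.162 and 0.124 in iCKO.

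**Figure D2:**
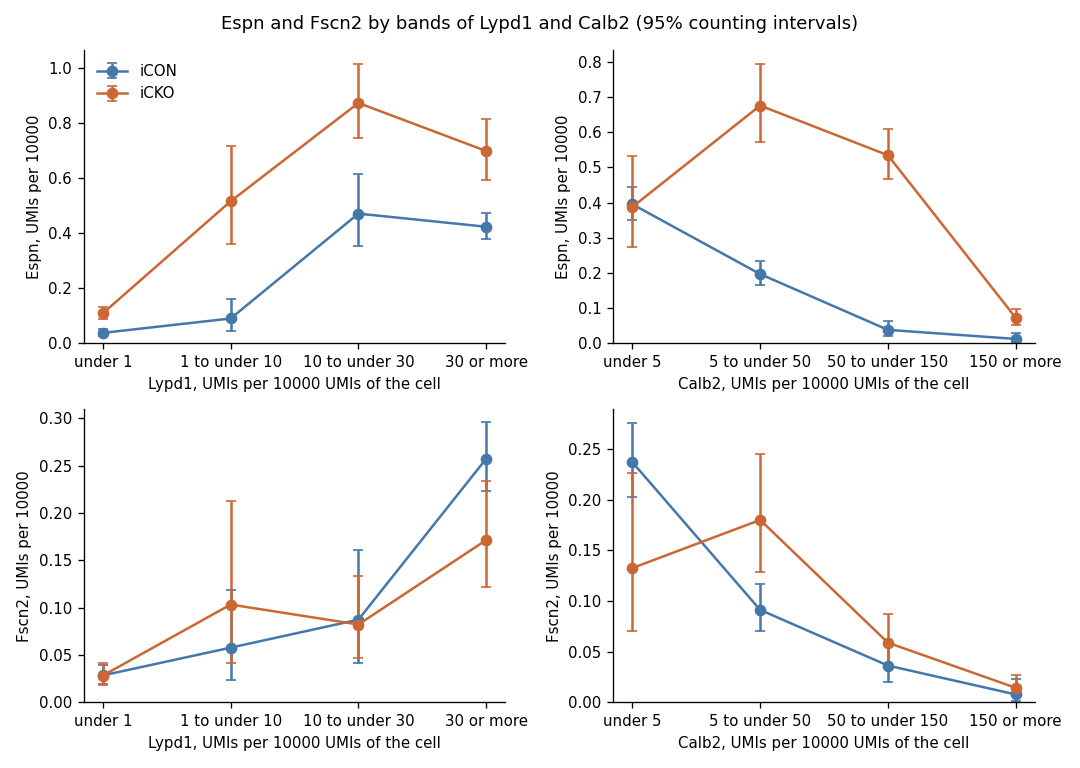
Espn (top) and Fscn2 (bottom) in UMIs per 10000, summed over cells, by bands of the cell's Lypd1 (left) and Calb2 (right) level, in iCON (blue) and iCKO (orange) with exact 95% Poisson intervals for counting error. Both genes decline from low to high Calb2 in iCON, while in iCKO the summed level of Espn is 0.534 in the band from 50 to under 150. The Calb2 bands hold Lypd1-high cells too.

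Espn was higher in iCKO in both main classes, which describes the contrast that chose it. In Lypd1-high cells the log2 ratio was 0.76 (0.64 to 1.07), where 2.23% of all genes were higher by the fold, and in Calb2-high cells it was 1.35 (1.74 to 3.16 without the pseudocount), where 1.34% of 9793 genes were higher and 1.93% lower by the fold. The latter rests on 21 UMIs in iCON and 126 in iCKO, and Espn reached the level filter in this class only through iCKO. Calb2-high cells with an Espn UMI numbered 11 of 154 in iCON and 51 of 256 in iCKO. In iCKO these 51 cells had a median Calb2 of 130 against 209 in the other 205, and in iCON the 11 had 75.9 against 133 in the other 143. Mean Lypd1 was 0.712 against 0.244 in iCKO and 0.127 against 0.261 in iCON, the opposite order. Mean Grm8, another gene of Ic neurons, was higher in the cells with Espn in both libraries. It was at 0.149 against 0.0276 in iCKO and 0.0811 against 0.0201 in iCON, where all 154 Calb2-high cells held 25 Grm8 UMIs. Pou4f1, a transcription factor gene of the same subtype, was at 0.345 against 0.104 in iCKO and 0.137 against 0.0559 in iCON. The Ic marker Ntng1 was not compared between these cells. The same cells also differed in myelin RNA, which was low in 19.6% against 45.4% of cells in iCKO and in 18.2% against 35.0% in iCON, and its part was not tested. Espn was higher in Calb2-high cells with a Runx1 UMI in both libraries. It was at 0.178 in the 202 such cells of iCKO and at 0.0372 in the 54 without one, and at 0.0376 in 102 and 0.00812 in 52 cells of iCON, the last on 2 UMIs.

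Espn was higher in iCKO among Xist cells (0.180 and 0.293, log2 ratio 0.58) and among Y-linked cells (0.228 and 0.484, 0.94). Xist cells of the Lypd1-high class had means of 0.380 and 0.620. Y-linked cells of that class, of which iCKO had 20, had means of 0.524 and 1.49. Myelin-gene RNA, which may come from attached glia or free glial RNA, moved with the result, and its source was not tested. In Lypd1-high cells with high myelin RNA Espn was at 0.423 and 0.923 in iCON and iCKO, with a log2 ratio of 1.04 (0.91 to 1.40). In those with low myelin RNA it was at 0.531 and 0.504, a log2 ratio of -0.068 (-0.54 to 0.45). In Calb2-high cells the Espn mean was higher in iCKO both with low myelin RNA (0.0109 and 0.0688, on 3 and 20 UMIs) and with high myelin RNA (0.0362 and 0.202, on 18 and 106 UMIs). The 3 myelin genes were chosen after seeing the data, and whether the split holds with other genes is not shown here. The part of myelin RNA in the library difference was not tested.

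Fscn2 was also highest in Lypd1-high cells in iCON, but not in iCKO, and over all cells it was lower in iCKO. Lypd1-high cells held 83.5% of its UMIs in iCON and 63.2% in iCKO. In iCON its mean was 0.235 in Lypd1-high, 0.0581 in intermediate-Calb2 and 0.0230 in Calb2-high cells, with 0 UMIs in both-low cells (up to 0.0304). In iCKO the means were 0.135, 0.157 and 0.0285, and the intermediate value rests on 9 UMIs in 18 cells. The log2 class ratio was 1.97 in iCON and 1.24 in iCKO, ranking 20 and 41 among the genes compared. Fscn2 in iCON was higher in cells with Lypd1 of 30 or more (0.256) than in the band from 10 to under 30 (0.0950). In iCKO the same bands had 0.171 and 0.0885.

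In Lypd1-high cells Fscn2 was lower in iCKO, with a log2 ratio of -0.62 (-1.31 to -0.42), where 3.62% of all genes were lower by the fold. The share with a UMI was 60% (interval 52.5 to 67.2) for iCON and 34.1% (25.9 to 43.1) for iCKO. After thinning the shares were 32.02% (25.2 to 39.4) and 22.4% (15.4 to 30.7), with intervals that overlap. The direction was not the same in all groups of cells. In Xist Lypd1-high cells the means were 0.232 and 0.105, a log2 ratio of -0.86 (-1.77 to -0.62). In Y-linked Lypd1-high cells they were 0.244 and 0.300, a log2 ratio of 0.25 (-0.48 to 1.03), within counting error on 20 iCKO cells. These cells pool groups whose means went opposite ways on few iCKO UMIs. With high Gm1821 the means were 0.182 in 61 iCON and 0.311 in 9 iCKO cells, and with low Gm1821 they were 0.456 in 18 and 0.292 in 11 cells. The iCKO values rest on 9 and 10 UMIs. Their summed levels had intervals of 0.147 to 0.608 and 0.143 to 0.547, which overlap those of the same groups in iCON. Within iCON the summed levels of these groups had intervals of 0.136 to 0.237 and 0.344 to 0.650, which do not overlap. In Calb2-high cells the ratio was 0.11 on 16 and 23 UMIs. By myelin RNA, Lypd1-high cells had a ratio of -0.29 (-1.44 to 0.56) with low and -0.64 (-1.40 to -0.36) with high myelin RNA, so the value with low myelin RNA is short of the fold and within counting error. Over all cells these ratios were -0.11 and -0.52. The part of myelin RNA was not tested. With the Lypd1-high, Calb2-high and intermediate classes weighted equally the library ratio of Fscn2 was 0.012, against -0.47 over all cells. In this value the iCKO intermediate class, with 9 UMIs in 18 cells, weighs as much as the Lypd1-high class, whose own ratio was -0.62.

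Most UMIs of both Espn and Fscn2 lay in Lypd1-high cells, and the number of cells holding both was close to that of independent genes. In thinned Lypd1-high cells of iCON, 22 of 178 held both and 23.4 would if the genes were independent. In iCKO the numbers were 17 of 125 and 17.2. Likeness of level over cells was the lower of the Spearman correlations in the 2 libraries, among 10262 genes. Runx1, the members, Xist, Tsix and the Y-linked genes Ddx3y, Eif2s3y, Kdm5d and Uty were left out of it. The genes most like Espn were Ccdc109b (0.52), Sphkap (0.52) and Lypd1 (0.51). For Fscn2 they were Lypd1 (0.32), Grm8 (0.31) and the neuronal splicing factor gene Rbfox3 (0.31). These are descriptions over 462 and 407 cells that share a library and a depth. Ccdc109b, which encodes a mitochondrial calcium uniporter subunit, was at 1.03 per 10000 in Lypd1-high and 0.0189 in Calb2-high cells of iCON.

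Ush1c was detected in the Lypd1-high, Calb2-high and intermediate classes of both libraries. In iCON its means were 0.138 in Lypd1-high, 0.187 in Calb2-high and 0.228 in intermediate-Calb2 cells, and in iCKO 0.405, 0.463 and 0.642. The log2 ratio of the Lypd1-high over the Calb2-high class was -0.34 (-0.82 to -0.086) in iCON, with an interval below 0, and -0.17 (-0.43 to 0.092) in iCKO. With class limits doubled the iCON ratio was 0.064, so its sign depends on the limits. The level was higher in iCKO in each of these classes, with log2 ratios of 1.28 (1.30 to 2.0), 1.12 (1.08 to 1.65) and 1.32 (0.79 to 1.98). An Ush1c UMI was seen in 31.0% of iCON cells and 77.9% of iCKO cells, and in 22.0% and 61.0% after thinning. By Calb1 among cells with Lypd1 below 10, the means were 0.208 in Calb1-positive and 0.169 in other cells of iCON, and 0.523 and 0.416 in iCKO. By the likeness used above, which leaves out Xist and the Y-linked genes, the nearest gene to Ush1c was Syt7 (0.17). Within a single library a correlation could be higher, as for Atpaf1, at 0.28 in iCON and 0.14 in iCKO.

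Within iCON, however, Ush1c followed another division of the cells, by sex-linked RNA and by Gm1821, a pseudogene whose reads can come from a near-identical copy. The division at 5 Gm1821 UMIs was chosen after its values were seen. Gm1821 itself differed between the libraries, with means of 9.47 in iCON and 0.493 in iCKO, and Ush1c went with it only among the Y-linked cells of iCON. Xist cells had a mean Gm1821 of 10.8 in iCON, where they had almost no Ush1c, and of 0.0289 in iCKO, where they held Ush1c. Of the 252 iCON cells with Xist, 1 held a single Ush1c UMI, a mean of 0.00181. Of the 43 Y-linked cells with under 5 Gm1821 UMIs, 0 held any, which allows up to 0.0144. Of the 159 Y-linked cells holding 5 or more, 137 held Ush1c (86.2%), with a mean of 0.457. These 159 cells carried 344 of the 356 Ush1c UMIs of iCON, or 96.6%. The remaining UMIs lay in 4 of the 5 cells with neither Xist nor Y-linked RNA (10 UMIs), in 1 of the 3 with both, and in the Xist cell. Median depths were 49253, 50796 and 50694 UMIs per cell in the 3 groups, in this order: Xist, Y-linked with low Gm1821 and Y-linked with high Gm1821.

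In the library labelled iCKO Ush1c was present in every group of cells. Its mean was 0.417 in 319 Xist cells, 0.559 in 58 Y-linked cells with low Gm1821 and 0.555 in 24 with high Gm1821. The shares of cells with a UMI were 76.5%, 79.3% and 87.5%. The library difference was therefore unlike in different groups. In Y-linked cells with high Gm1821 the log2 ratio was 0.25 (-0.21 to 0.79), within counting error. In Xist cells the comparison was 459 UMIs against 1, a log2 ratio of summed UMIs of 8.94 (6.45 to 14.2). In Y-linked cells with low Gm1821 it was 98 UMIs against 0, and the exact lower limit of the log2 ratio of summed UMIs was 4.97. The labels do not say which cells came from which animal. With 1 library per group, genotype and group of cells cannot be told apart for Ush1c.

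**Figure D3:**
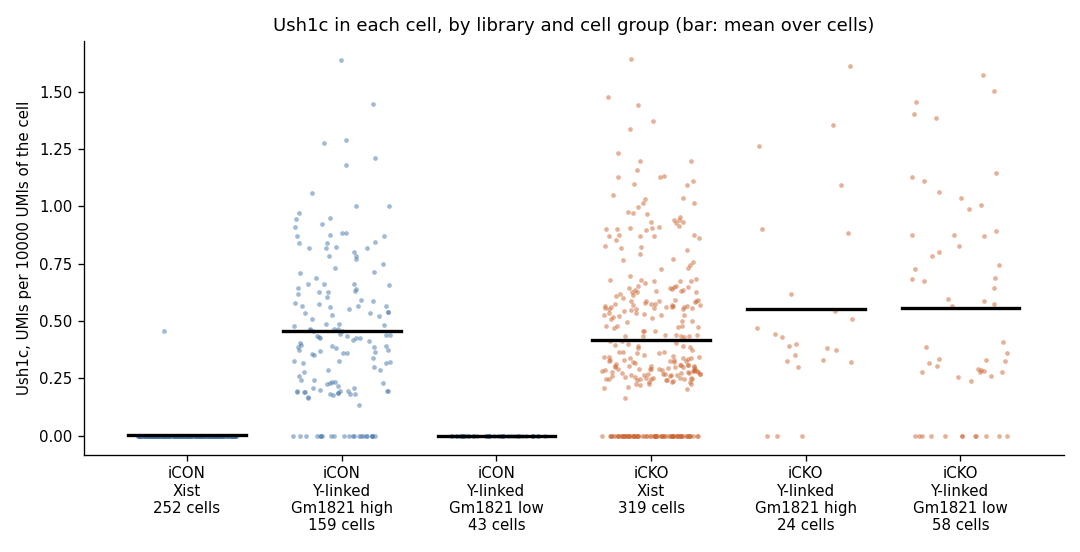
Ush1c level in each cell, in UMIs per 10000 UMIs of the cell, by library and by group of cells, with a bar at the mean over cells and random horizontal spread. In iCON the Xist cells (mean 0.00181) lie at 0 except 1 cell with a single UMI, at 0.456. The iCON Y-linked cells with low Gm1821 (0 UMIs) lie at 0, and the other 4 groups have means from 0.417 to 0.559.

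The division within iCON was seen in each of the main classes. Among the iCON Y-linked cells with high Gm1821, Ush1c was at 0.382 in 61 Lypd1-high, 0.538 in 52 Calb2-high and 0.466 in 46 intermediate-Calb2 cells. The intervals of the summed levels were 0.301 to 0.442 in the Lypd1-high and 0.428 to 0.603 in the Calb2-high cells. Among Xist cells it had 1 UMI in 97 Lypd1-high cells and 0 in 81 Calb2-high cells. All 31 both-low cells of iCON were Xist cells, so their lack of Ush1c cannot be told apart from that of their group. Across 10075 genes, 0.169% were higher by a log2 ratio of at least 1 in the iCON Y-linked cells with high Gm1821 than in the Xist cells and 1.2% were lower, and Ush1c had a ratio of 3.29, rank 2. The 20 neighbouring listed genes, 10 on each side on chromosome 7, had ratios from -0.99 (Ldha) to 1.01 (Kcnj14), and Abcc8 and Kcnc1, the nearest on either side, had 0.34 and 0.18. The other members differed less between these cells, with 0.33 for Espn and -0.25 for Fscn2.

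Myo7a was a rare transcript, seen in 40 of 462 iCON cells and 42 of 407 iCKO cells, and its library ratio was 0.054 (-0.11 to 1.11). Without the both-low class the library ratio of Myo7a was 0.36, on 28 UMIs in iCON and 45 in iCKO. Within iCON its level was highest in the both-low class, which held 23 of its 51 UMIs (45.1%) and was 6.71% of the cells, while the Lypd1-high, intermediate-Calb2 and Calb2-high classes held 11, 11 and 6. Of these 31 cells, 16 held Myo7a, and the mean was 0.235 against 0.0146 in the other cells, a log2 ratio of 2.14. Its rank was 246 of 10591 genes, of which 10.1% were higher and 11.4% lower by a log2 ratio of at least 1, so many genes separate this class. The both-low cells had marker RNA of type II neurons. Their mean Gata3 was 7.09 against 0.296 in Lypd1-high and 0.424 in Calb2-high cells, and their mean of peripherin (Prph) was 1.57 against 0.00116 and 0.00142. The summed level of the 6 type II markers had a median of 16.4 in these cells, with a range from 1.501 to 30.7, and at most 1.37 in the other 3 classes of iCON.

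Within that class, mean Gata3 was 7.10 in the 16 both-low cells with a Myo7a UMI and 7.08 in the 15 without, and Prph was present in 9 and 8 of them, with means of 1.25 and 1.91. Th, which encodes tyrosine hydroxylase, was present in 12 and 14 of them, and the median depths were 32558.5 and 28386 UMIs. With Gata3 of at least 3 per 10000 as the limit, chosen after the values were seen, 16 of 30 iCON cells held Myo7a. The iCKO library had only 7 both-low cells, at a median depth of 20915 UMIs, and they held 0 Myo7a UMIs, which allows up to 0.146. Of these 7 cells 14.3% were Xist cells, against 100% of the 31 in iCON. That limit lies below the iCON level of 0.235, but the Xist cell held 79487 of the 205326 UMIs behind it. This Xist cell was below the Gata3 limit of 3, so it lacked the Gata3 level of the type II marker cells. The other 6 both-low cells allow up to 0.238, which is not below the iCON level. By the Gata3 limit, 7 iCKO cells held 0 Myo7a UMIs, which allows up to 0.202 and has an exact upper limit of 0.248, against 0.243 in the 30 iCON cells. Whether the iCKO limit lies below the iCON level thus depends on which cells are taken, and the cells also differ in sex-linked RNA, so genotype and cell group cannot be told apart here. In Lypd1-high cells Myo7a was at 0.0135 in iCON and 0.0350 in iCKO on 11 and 15 UMIs, and in Calb2-high cells at 0.00766 and 0.0300 on 6 and 26 UMIs. The log2 ratios were 0.42 and 0.47, short of the fold, and Myo7a did not reach the level filter in either class, while the intervals of the summed UMIs lie above 0 (0.29 to 2.78 and 0.63 to 3.52). After thinning the shares of cells with a UMI were 3.37% and 5.60% in Lypd1-high cells and 1.32% and 5.86% in Calb2-high cells, and the intervals overlap in both classes. By the same likeness no ranked gene followed Myo7a closely over cells. The highest was Pnisr, at 0.16 in iCON and 0.13 in iCKO.

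**Figure D4:**
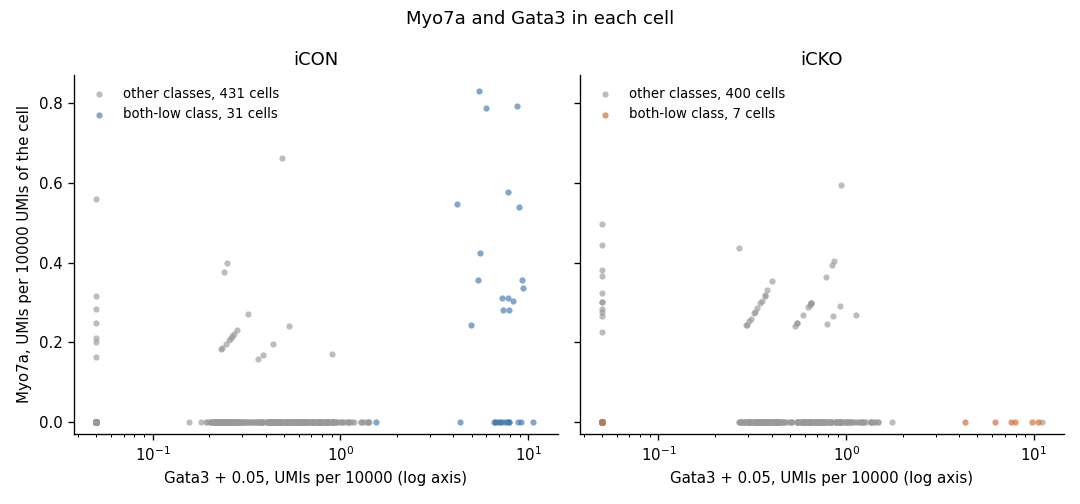
Myo7a against Gata3 (plus 0.05, log axis), both in UMIs per 10000 UMIs of the cell, in iCON (left) and iCKO (right), with both-low cells in colour and other classes in grey. In iCON 16 of 31 both-low cells hold Myo7a, and in iCKO 0 of 7 do. Diagonal rows of points are cells with the same small number of UMIs of each gene.

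Otof was at the edge of detection, with 7 UMIs in 3 cells. In iCON 2 both-low cells held 1 UMI each. These cells had 25 and 33 Gata3 UMIs, and the former also had 10 Prph UMIs while the latter had 0. The latter held 2 Myo7a UMIs. In iCKO a single Lypd1-high Xist cell held 5 UMIs, with 180 Lypd1 UMIs, 1 Ush1c UMI and 0 of Espn, Fscn2 and Myo7a. That cell had 60518 UMIs in all, 1.80 times the median of its library, and 442 UMIs of Pcp4, which is also a hair cell gene and had 1558 UMIs in 16 cells of iCKO. Whether these Otof molecules belong to the neuron or to other RNA in the droplet was not tested. In the Calb2-high cells Otof had 0 UMIs, which allows up to 0.00384 per 10000 in iCON and 0.00342 in iCKO. Its library ratio of 0.019 has an interval of -0.61 to 5.39 and says nothing of a difference.

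**Figure D5:**
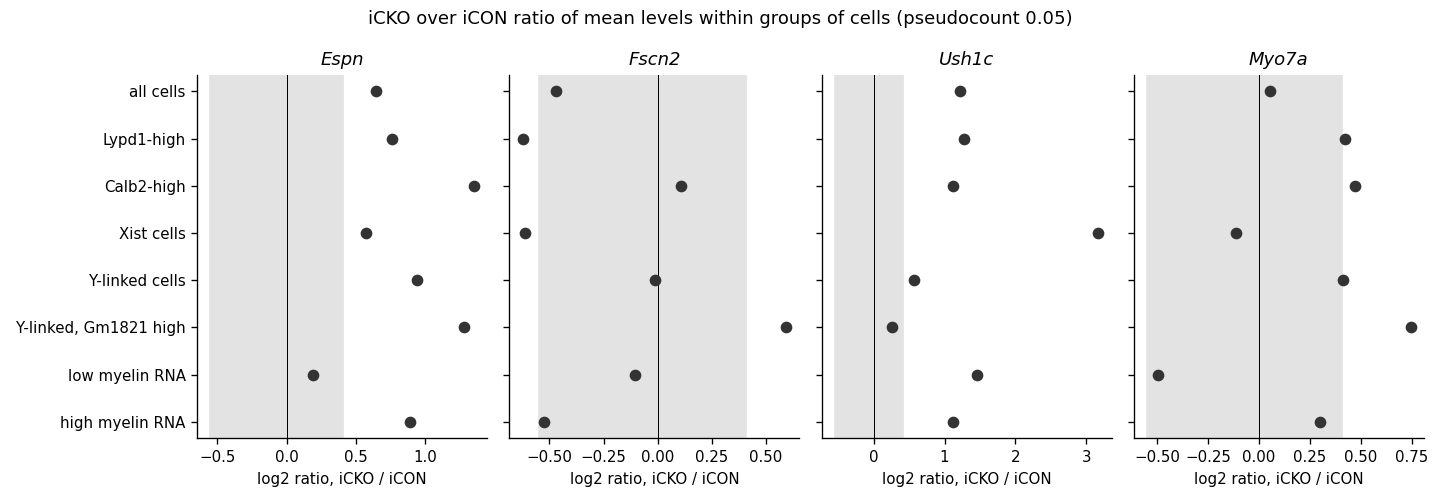
Log2 ratio of mean levels, iCKO over iCON with a pseudocount of 0.05, for 4 members (panels, each with its own x scale) within groups of cells (y axis). The grey band holds the middle 95% of 9968 genes over all cells, from -0.55 to 0.41. Espn and Ush1c lie right of 0 in each group shown, Espn at 0.19 in cells with low myelin RNA and Ush1c at 0.25 in Y-linked cells with high Gm1821, while Fscn2 and Myo7a lie on both sides.

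Genes that work with the members in hair cells were read from lists of stereocilia crosslinkers and length regulators, Usher and tip link proteins, the transduction channel, the ribbon synapse, ferlins, myosins and further deafness genes. Of the 98 genes, 72 were listed and 40 passed the level filter. Of these 40, 1 was higher in iCKO by the fold (2.5%) and 2 were lower (5%), against 1.38% and 3.26% of all genes, and the median log2 ratio was -0.095 against -0.030 over all genes. The higher one was Cabp1, a calcium-binding regulator of calcium channels, with means of 2.61 and 4.15 and a ratio of 0.66. The lower ones were the plastins Pls1 (0.130 and 0.0698, -0.59) and Pls3 (0.532 and 0.330, -0.61), which also bundle actin. By list, 0 of 11 crosslinker genes were higher and 2 lower, and 1 of 11 ribbon synapse genes was higher. No gene past the fold was found among 4 Usher and tip link, 11 further deafness, 1 transduction channel, 1 ferlin and 1 myosin gene. The highest levels were those of Snap25 (31.1 and 27.1), Actb (17.1 and 15.8) and Actg1 (10.6 and 10.6), which neurons of all kinds express.

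The same lists were compared between Lypd1-high and Calb2-high cells. Of 42 listed genes past the filter in iCON, 1 was higher in Lypd1-high than in Calb2-high cells by a log2 ratio of at least 1, or 2.38% against 1.17% of all genes. In iCKO 0 of 41 were, against 0.701% of all genes. The median log2 ratio of the lists was 0.066 in iCON and 0.098 in iCKO, against 0.024 and 0.026 over all genes. The gene past the fold was Cib2, which encodes a calcium-binding partner of the transduction channel, at 4.88 and 2.40 in iCON and 4.27 and 2.70 in iCKO, with ratios of 1.01 and 0.66. The plastin Pls1 came close, at 0.184 in Lypd1-high and 0.0677 in Calb2-high cells of iCON and at 0.123 and 0.0397 in iCKO, with ratios of 0.99 and 0.95. The tip link genes Cdh23 and Pcdh15, whose products bind harmonin in hair cells, had 94 and 4 UMIs in iCON and 22 and 5 in iCKO.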

How the data were processed

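The deposited table holds, per the values, the natural log of 1 plus CPM in each cell, and the other deposited file, of another kind of value, assigns each cell to a library. Cell Ranger, Seurat and the mm10 build are named per the submitters' processing notes, and versions and filters are not given in the sources used here. Linear values were divided by each cell's smallest step, and 100% of the results lay within 1e-06 of a whole number, taken as UMIs of the listed genes. Members, gene lists and classes were chosen with earlier results of these data known. Named genes were the 5 members, the 3 genes most like each by Spearman correlation (among genes in at least 10% of cells of both libraries), the class genes, and list genes past the fold or among the 3 highest. A comparison took in genes whose mean reached 0.05 per 10000 in either group. Intervals at 95%, Poisson for UMIs and Clopper-Pearson for shares, are exact, and with the floor of 3 counts for 0 they cover counting error only. Thinning to 20000 UMIs kept 454 iCON and 405 iCKO cells. Cells with low myelin RNA had under 5 UMIs of Mbp, Pmp22 and Mal per 10000, a list chosen after seeing the data; a longer planned list is not reported here. Scrublet, as built into scanpy 1.11.5, called 1 iCON and 4 iCKO cells doublets, which stayed in except under an alternative. The other tools were Python 3.11.15, numpy 2.4.6, pandas 2.3.3, scipy 1.17.1 and matplotlib 3.10.9. Some of the calculations were tried on simulated data. The outcome is not given here, and nothing about genes as low as the members is drawn from it. Alternatives changed the pseudocount, the class limits, the filter, the summing, the depth and the cells used.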

Additional observations from a re-analysis of the deposited data

Results flagged for a closer look

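The library ratio of some members had opposite signs in different groups of cells, and none of these differences between groups was tested. For Fscn2 the log2 ratio of iCKO over iCON was -0.62 in Lypd1-high and 0.11 in Calb2-high cells. Lypd1-high cells with Xist had -0.86 and Y-linked ones 0.25. For Myo7a the ratio was -0.11 among Xist cells and 0.41 among Y-linked ones, and -0.497 in cells with low and 0.30 in cells with high myelin RNA. The Myo7a values rest on 96 UMIs in all. Of its 51 iCON UMIs, 23 lay in the both-low class, whose 31 iCON cells were all Xist cells. Without that class the Myo7a library ratio was 0.36. In Xist cells Myo7a was at 0.00747 in iCON and 0.0370 in iCKO in the Lypd1-high class, and at 0.00471 and 0.0231 in the Calb2-high class. With low myelin RNA these classes had 0.0328 and 0.0406, and 0.00406 and 0.0208.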

How the results depend on the processing

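Each library ratio and each class ratio was recomputed under alternatives, of which those on Gm1821 groups, on myelin RNA, on Lypd1-high cells alone and without the both-low class were chosen after seeing the data. Of these values 127 moved by no more than 0.5 of the width of the counting interval and 20 moved by more. That interval belongs to the summed UMIs with no pseudocount. It is wide for the library ratios of Otof (-0.61 to 5.39) and Myo7a (-0.11 to 1.11). A value of these genes counted as unmoved is therefore no sign of stability. The library ratios of Espn and Ush1c and the class ratios of Espn and Fscn2, which were past a fold, kept their sign under these alternatives. Ratios short of a fold in the main setting changed sign under some of them. These were the library ratios of Fscn2, Myo7a and Otof, the class ratio of Ush1c in iCON and those of Myo7a in both libraries. Library ratios within the Lypd1-high class also changed sign: Espn went from 0.76 to -0.068 with low myelin RNA, and Fscn2 from -0.62 to 0.25 in Y-linked cells. The Espn library ratio (0.64) became 0.94 in Y-linked cells, 1.28 and 0.99 in those with high and low Gm1821, 0.89 with high myelin RNA and 0.19 with low myelin RNA. That of Fscn2 (-0.47) became -0.014 in Y-linked cells, and 0.59 and -0.86 in those with high and low Gm1821. It was past the fold, at -0.66, with a pseudocount of 0.01. With summed UMIs it was -0.526, and without the both-low class -0.525, so whether Fscn2 passes the fold depends on the processing. With classes weighted equally, the intermediate one on 9 iCKO UMIs, the Fscn2 library ratio was 0.012. That of Ush1c (1.22) became 1.46 with low myelin RNA, 3.17 in Xist cells, 0.57 in Y-linked cells, and 0.25 and 3.61 in those with high and low Gm1821; the values 3.17 and 3.61 stand on 1 and 0 iCON UMIs and depend on the pseudocount. That of Myo7a (0.054) became -0.11 in Xist cells, -0.497 with low myelin RNA and 0.75 in Y-linked cells with high Gm1821. It became 0.36 without the both-low class and 0.47 with classes weighted equally. With a pseudocount of 0.01 the iCON class ratios were 3.58 for Espn and 2.90 for Fscn2. The Ush1c class ratio in iCON was 0.13 in Xist cells and 0.064 with class limits doubled, and the Espn class ratio in iCKO was 2.67 in Y-linked cells. The cause of these moves was not tested. No paired analysis was possible because each group is 1 library. Depth limits Otof and Myo7a, whose ratios rest on 7 and 96 UMIs.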
